A study of Mus musculus with 6 samples.

Results

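Plasma cells are the antibody-secreting end stage of the B lymphocyte lineage. They silence most of the B cell programme and turn the endoplasmic reticulum (ER) over to the folding, glycosylation and export of 1 immunoglobulin, and the unfolded protein response through XBP1 is required for this state. The liver holds plasma cells that secrete IgA, an isotype typical of mucosal surfaces, beside cells that secrete IgM and IgG. Each cell makes 1 heavy-chain isotype, set by class switching from Ighm to a constant gene further along the locus, and the joining chain encoded by Jchain links IgA and IgM into polymers.

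In the livers analysed here, 286 plasma cells were found among 11610 cells. They were chosen by a rule on UMIs (unique molecular identifiers, each counting 1 captured mRNA molecule): a cell had at least 1 UMI of Jchain, of Mzb1, which encodes an ER chaperone of B cells and plasma cells, and of Derl3 or Eaf2, and it had none of Siglech, Clec4f, Cd3e or Ncr1, which mark plasmacytoid dendritic cells, Kupffer cells, T cells and natural killer cells. Derl3 encodes a protein of ER-associated degradation and Eaf2 a transcription elongation factor. Because these genes selected the cells, their levels are given as a description. Jchain had a mean level of 476 ± 54.8 CP10K over the mice (SD, n = 6), Mzb1 36.2 ± 6.44, Derl3 4.58 ± 0.80 and Eaf2 2.18 ± 0.87, where CP10K is UMIs per 10000 UMIs of a cell, averaged over the cells of a mouse. Of the 286 cells, 106 had both Derl3 and Eaf2, 120 had only Derl3 and 60 had only Eaf2.

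The samples were whole-liver preparations of 3 wild-type (WT) and 3 SIRT7-/- mice, the latter lacking the histone deacetylase SIRT7 in every tissue and developing steatohepatitis on a chow diet. All mice were 5 to 6 months old, and the labels give no treatment. Hepatocytes and nonparenchymal cells obtained by collagenase perfusion were mixed and captured on the 10x Genomics Chromium platform with a 3′ kit, 1 library per mouse. The fractions were mixed before capture, so a cell type's share of a library also reflects how the 2 fractions were combined, and the mutation was present in all cells, so effects in the plasma cells and effects of their surroundings cannot be told apart.

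The libraries held between 552 and 5609 cells and between 2511947 and 11069411 UMIs. The library of SIRT7-/- mouse 1 stood apart, with 5609 of the 11610 cells and S100a8 or S100a9 UMIs in 32.1% of its cells outside the plasma cells, against 3.08 to 8.15% in the other 5 libraries. Cells with at least 50 CP10K of Alb, the hepatocyte gene for albumin, numbered 829, 477 and 65 in the WT and 426, 20 and 333 in the SIRT7-/- libraries. Sirt7 itself was at 0.718, 0.512 and 0.546 CP10K over all cells of the WT mice and at 0.09999, 0.0814 and 0.139 in the SIRT7-/- mice, so the labels and the targeted gene went together.

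The plasma cells numbered 11, 17 and 88 in WT mice 1, 2 and 3 and 70, 88 and 12 in SIRT7-/- mice 1, 2 and 3. As a share of all cells of the library this was 0.885% (exact 95% binomial interval 0.443 to 1.58%), 1.82% (1.06 to 2.90%) and 8.04% (6.50 to 9.82%) in the WT mice. In the SIRT7-/- mice it was 1.25% (0.974 to 1.57%), 4.04% (3.25 to 4.95%) and 2.17% (1.13 to 3.77%). These intervals cover counting error only. The highest and the lowest share were both in WT mice, and the means of 3.58 ± 3.89% and 2.49 ± 1.42% (SD, n = 3 each) were not distinguished by an exact two-sided permutation test (p = 0.9, where 3 against 3 mice cannot go below 0.1). Without WT mouse 3 the difference turned from -1.10 to 1.13 percentage points. Among cells with a UMI of the leukocyte gene Ptprc, which 7, 4 and 30 of the WT and 17, 29 and 2 of the SIRT7-/- plasma cells had, plasma cells made up 2.20, 1.59 and 4.50% in the WT and 0.608, 1.89 and 1.20% in the SIRT7-/- mice.

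A plasma cell carried a median of 4170.5 UMIs (range 1073 to 20962) from 915.5 genes, against 1853 UMIs in the other cells. Between 3.61 and 74.99% of its UMIs came from immunoglobulin genes, with a median of 52.3%, and 269 of the 286 cells had a share of 20% or more. Depth differed between libraries, with a median of 11001, 12799 and 4650.5 UMIs per plasma cell in the WT and 2823.5, 3914 and 9814 in the SIRT7-/- mice. Just inside the rule, the 71 cells with 1 UMI of Derl3 and Eaf2 together had a median immunoglobulin share of 56.0%. Just outside it, 82 cells had Jchain and Mzb1 but neither Derl3 nor Eaf2, and their median share was 56.2%. A further 56 cells met the positive part of the rule and were left out by the negative genes, 34 of them by Cd3e, and their median share was 44.5%. The rule is therefore narrower than the immunoglobulin-rich cells of these libraries, and results on isotypes below are also given for the cells outside it.

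The label was checked on genes that the rule did not use. XBP1, IRF4 and BLIMP1 (Prdm1) are the transcription factors of plasma cell differentiation. Xbp1 was at 9.35, 8.98 and 10.9 CP10K in the plasma cells of the WT and 6.19, 9.52 and 10.7 in those of the SIRT7-/- mice, with a mean of 9.27 ± 1.69 (SD, n = 6). The mean over mice was 1.12 in B cells, taken as the 93 other cells with both Cd79a and Ms4a1 and none of the 4 negative genes, and 1.71 in all remaining cells. These 93 included 12 cells with an immunoglobulin share of 20% or more, and only 2 of the 93 came from SIRT7-/- mouse 3. Irf4 had means of 1.55, 0.341 and 0.0978 CP10K in plasma cells, B cells and remaining cells, and Prdm1 had 0.999, 0.0534 and 0.153. Txndc5, an ER protein disulfide isomerase, had 10.2, 1.70 and 0.636. Tnfrsf17, the BCMA receptor that transmits the survival signal APRIL, had 1.999, 0.167 and 0.0228. Sdc1, the gene for the surface marker CD138, had 1.28, 0.289 and 0.926, and its levels in the remaining cells reached 1.98 CP10K in 1 mouse, above the 0.923 to 1.78 of the plasma cells.

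The B cell programme was low in the same cells. Pax5, the B cell identity factor, averaged 0.0133 CP10K in plasma cells against 1.43 in B cells, and H2-Aa, an MHC class II chain, 1.02 against 33.4. Ms4a1 (0.464 against 9.19) and Cd79a are above 0 in the B cells by their definition and check nothing. Of 25 B cell genes listed, Ms4a1 included, none had a higher mean in plasma cells than in B cells. Of 27 plasma cell genes measured, 20 had a higher mean in plasma cells than in B cells and 18 were above the remaining cells in every mouse, while Fcrl5 and Spag4 were at 0 in all plasma cells. The data thus went with the label. All of these values are descriptions with no test, since the cells were selected on genes of the same programme.

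**Figure D1:**
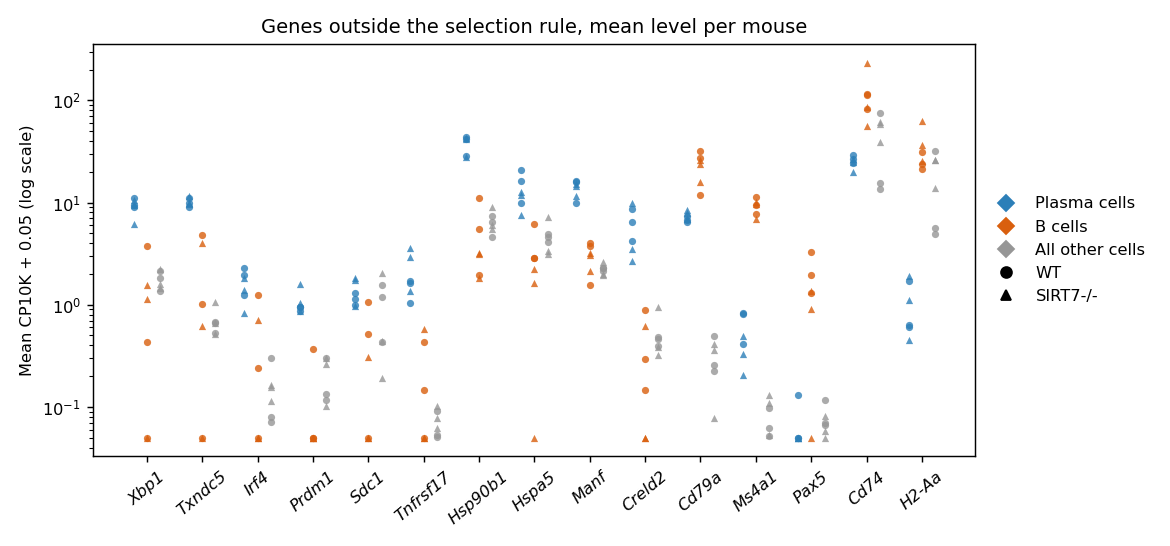
Mean level per mouse of genes outside the selection rule, in CP10K plus 0.05 on a log axis, for plasma cells (blue), B cells (orange) and all other cells (grey); circles are WT and triangles SIRT7-/- mice, and each point is 1 mouse. The plasma cells sit at 6.19 to 10.9 CP10K of Xbp1 and 27.8 to 43.6 of Hsp90b1, above the other cells of every mouse, and below the B cells for Cd74 and H2-Aa, and for Cd79a and Ms4a1, which defined the B cells.

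Genes of the secretory apparatus were high in the plasma cells. Hsp90b1, which encodes the ER chaperone GRP94, averaged 37.7 ± 7.41 CP10K (SD, n = 6) against 4.41 in B cells and 6.44 in remaining cells. Hspa5, which encodes the chaperone BiP, averaged 13.2 ± 4.76 against 2.57 and 4.50, and Manf, an ER stress-induced secreted factor, 13.8 ± 2.53 against 2.90 and 2.16. Creld2, another ER stress-induced gene, averaged 5.88 ± 2.95 against 0.291 and 0.447. Over 69 listed genes of ER folding, translocation and export, 62 had a higher mean in plasma cells than in B cells and 63 a higher mean than in remaining cells, 45 of them in each of the 6 mice. Their summed level ran from 237 to 302 CP10K over the mice in plasma cells, from 74.5 to 136 in B cells and from 93.0 to 115 in remaining cells.

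Genes of the integrated stress response (ISR), in which phosphorylation of eIF2α raises ATF4, did not stand out as a set against the remaining cells. On the CP10K scale, 9 of 30 listed genes had a higher mean in plasma cells than in remaining cells, and their summed level was 5.92 to 10.6 in the plasma cells and 14.5 to 21.1 in the remaining cells of the mice. Immunoglobulin UMIs lower the CP10K of every other gene of a plasma cell, so levels were also computed per 10000 UMIs that are not immunoglobulin, after the data were seen. On that scale 16 of the 30 were higher and the sums were 15.3 to 22.05 and 14.5 to 21.1, which overlapped, while 68 of the 69 ER genes were higher. Atf4 averaged 0.913 against 1.58 CP10K and 1.93 against 1.596 on the second scale, so its order depended on the scale. Cebpb, which encodes the transcription factor C/EBPβ, was lower in plasma cells on both scales, at 0.697 against 6.39 CP10K and 1.40 against 6.40. Atf3, Stc2 and Vldlr had no UMI in any of the 286 cells.

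The promoters of the ER genes are shown here because the listed genes were high together and some carry the ER stress response element (ERSE), to which ATF6 and XBP1 are known to bind. The sequences are from RefSeq on GRCm38.p6, the 250 bases before the annotated start on the gene's strand, in lower case with the fixed letters of the matched element in capitals. ERSE was searched as CCAAT, 9 bases of any kind and CCACG, and ERSE-II as ATTGG, 1 base of any kind and CCACG, on both strands. Herpud1 encodes an ER-associated degradation factor.
Hspa5 (chr2:34771840-34772089, + strand): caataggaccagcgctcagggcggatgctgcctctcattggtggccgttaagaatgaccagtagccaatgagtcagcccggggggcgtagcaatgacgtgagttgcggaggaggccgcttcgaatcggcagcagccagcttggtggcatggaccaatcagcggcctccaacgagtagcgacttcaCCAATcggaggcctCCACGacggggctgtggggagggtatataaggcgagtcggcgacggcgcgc
Derl3 (chr10:75893148-75893397, + strand): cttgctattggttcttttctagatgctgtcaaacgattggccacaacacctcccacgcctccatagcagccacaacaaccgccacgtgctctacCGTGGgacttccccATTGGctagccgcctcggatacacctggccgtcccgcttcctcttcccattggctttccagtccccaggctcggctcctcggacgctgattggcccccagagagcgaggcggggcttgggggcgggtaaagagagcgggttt
Creld2 (chr15:88819396-88819645, + strand): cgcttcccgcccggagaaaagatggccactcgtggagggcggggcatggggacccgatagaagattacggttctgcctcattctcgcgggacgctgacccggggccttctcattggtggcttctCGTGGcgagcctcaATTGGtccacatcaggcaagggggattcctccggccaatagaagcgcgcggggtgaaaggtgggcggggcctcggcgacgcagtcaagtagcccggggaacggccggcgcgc
Herpud1 (chr8:94386179-94386428, + strand): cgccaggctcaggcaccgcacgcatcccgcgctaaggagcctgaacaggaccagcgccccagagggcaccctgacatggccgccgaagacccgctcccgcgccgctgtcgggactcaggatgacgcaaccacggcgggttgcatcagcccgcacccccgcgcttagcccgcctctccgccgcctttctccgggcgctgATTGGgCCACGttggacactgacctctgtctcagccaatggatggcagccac

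The ERSE match began 65 bases before the start in Hspa5, on the strand of the gene, and 156 and 126 bases before it in Derl3 and Creld2, on the opposite strand. The ERSE-II match of Herpud1 began 52 bases before the start. In windows of 300 bases, from 250 before to 50 after the start, ERSE was in 10 of the 59 ER genes with a promoter in the table (16.9%) and in 37 of 27025 genes overall (0.137%). The 10 were Calr, Canx, Creld2, Derl3, Dnajc3, Ero1b, Hsp90b1, Hspa5, Pdia6 and Syvn1. ERSE-II was in 3 of the 59 (5.08%: Dnajb11, Herpud1 and Krtcap2) and in 12 genes overall (0.0444%). The octamer ATTTGCAT was in none of 24 plasma cell genes with a promoter and in 1.97% of all. ER genes with such elements are a known class, and a match is a description of letters in a window.

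The heavy-chain isotype of each cell was taken as the constant gene with the most UMIs. The constant genes lie in a row on chromosome 12 (GRCm38, all on the minus strand), with Ighm at chr12:113418558-113422730 first in the direction of transcription, then Ighg3, Ighg1, Ighg2b (chr12:113302965-113307933) and Ighg2c, and Igha at chr12:113254830-113260236 last. No window of 90 bases was shared between the annotated transcripts of these genes, so a read of that length has no second exact match among them. A plasma cell had between 20 and 3732 heavy-chain UMIs, with a median of 600, and in 270 of 286 cells over 90% of them came from 1 gene. The call was therefore clear in nearly every cell, and 2 cells fell below 75%.

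IgA was the leading isotype. Over all mice, 197 of 286 plasma cells were IgA-dominant (68.9%), 46 IgG-dominant (16.1%), 41 IgM-dominant (14.3%) and 2 IgE-dominant (0.699%). Among the IgG cells, Ighg2c led in 16, Ighg2b in 14, Ighg1 in 13 and Ighg3 in 3. No cell was IgD-dominant, where 0 of 286 allows a share of up to 1.05%.

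The isotypes were distributed differently in the 2 genotypes. IgM-dominant cells were 3 of 11, 9 of 17 and 26 of 88 in the WT mice (27.3, 52.9 and 29.5%) and 3 of 70, 0 of 88 and 0 of 12 in the SIRT7-/- mice (4.29, 0 and 0%). The zeros allow shares of up to 3.41% in SIRT7-/- mouse 2 and 25.0% in SIRT7-/- mouse 3. The groups did not overlap, and the difference between 36.6 ± 14.2 and 1.43 ± 2.47% (SD, n = 3 each) was -35.2 percentage points (exact two-sided permutation test, p = 0.1, the smallest that 3 against 3 mice can give, and 0.15 after Benjamini-Hochberg adjustment over 3 isotypes). IgA-dominant cells were 63.6, 23.5 and 51.1% of the plasma cells of the WT and 80.0, 87.5 and 66.7% of those of the SIRT7-/- mice. These groups did not overlap either (46.1 ± 20.5 against 78.1 ± 10.6%, exact permutation test, p = 0.1, adjusted 0.15). Neither difference passed a threshold of 0.05, which this number of mice cannot reach. IgG-dominant cells were 9.09, 23.5 and 18.2% and 15.7, 11.4 and 33.3%, and did not differ beyond the spread between mice (exact permutation test, p = 0.8).

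The cells that the rule left out, pooled over mice, were distributed in the same direction. Of the cells with Jchain and Mzb1 but neither Derl3 nor Eaf2, 10 of 26 WT cells were IgM-dominant (38.5%) and 5 of 56 SIRT7-/- cells (8.93%), where 25 of the 26 WT cells were from WT mouse 3. Of the cells outside the rule with an immunoglobulin share of 20% or more, these were 14 of 41 (34.1%, 38 of them from WT mouse 3) and 6 of 104 (5.77%). Under the alternatives tried the IgM difference ran from -39.8 to -27.0 and the IgA difference from 20.7 to 40.7 percentage points, each in 1 direction. Shares add up to 100%, so fewer IgM cells and more IgA cells cannot be told apart here, and cells of 1 mouse can descend from 1 clone.

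**Figure D2:**
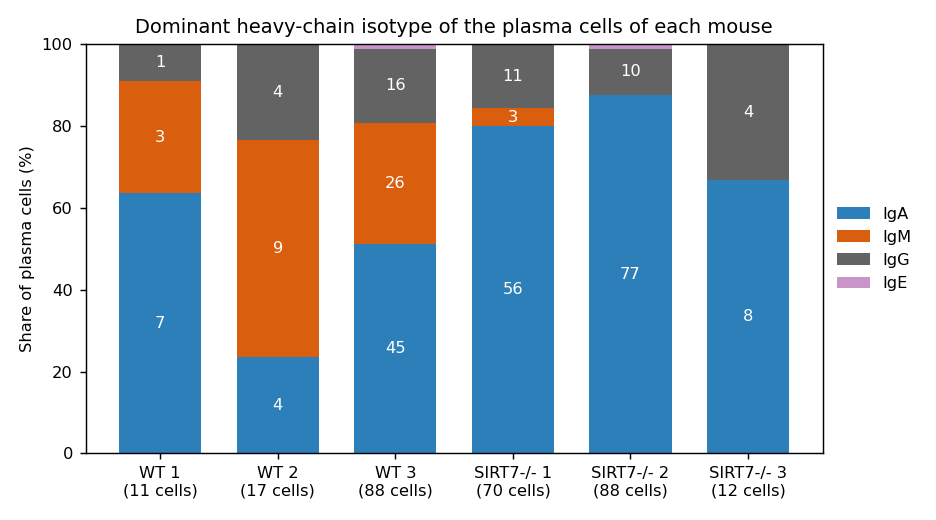
Share of the plasma cells of each mouse, in percent, by dominant heavy-chain isotype; numbers in the bars count cells and the number below each mouse is its total. IgM-dominant cells (orange) make up 27.3 to 52.9% in the WT and 0 to 4.29% in the SIRT7-/- mice.

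Of the constant genes, Ighm separated the genotypes as the IgM share did. It had mean levels of 311, 758 and 455 CP10K in the plasma cells of the WT mice and 58.1, 9.74 and 7.85 in those of the SIRT7-/- mice. The groups did not overlap, and the difference was -4.85 ± 0.99 on the log2 scale (SE, limma, unadjusted p = 0.00793, Benjamini-Hochberg adjusted p = 0.584 over 7212 genes). Of these genes, 0.166% were called lower in SIRT7-/- and 0.0832% higher in the same fit. Igha had 1254, 321 and 858 CP10K against 860, 1362 and 1200, which overlapped, unlike the IgA shares (log2 difference 0.68, limma with Benjamini-Hochberg, adjusted p = 0.999). Ighg2b had 125, 206 and 82.7 CP10K against 40.4, 39.2 and 64.0, all SIRT7-/- mice below all WT mice, and was called lower (log2 difference -1.46 ± 0.22, limma with Benjamini-Hochberg, adjusted p = 5.07e-08). Its call rested on few cells, since Ighg2b was dominant in 8 WT and 6 SIRT7-/- cells. It was lost under 12 of 20 alternatives, among them leaving out WT mouse 1, WT mouse 2 or SIRT7-/- mouse 3, and in IgA-dominant cells alone the log2 difference was -0.034.

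The UMIs of a cell also showed which pairs of constant genes occurred together. IgM-dominant WT cells had many Ighm UMIs and, in 2 cells only, a UMI of Igha. Among IgA-dominant cells, at least 3 Ighm UMIs were found in 0 of 7, 0 of 4 and 4 of 45 cells of the WT mice and in 5 of 56, 26 of 77 and 1 of 8 of the SIRT7-/- mice. SIRT7-/- mouse 2 therefore held most of the cells with both, at 33.8% of its IgA cells and a median of 9 Ighm UMIs in them. Of all its cells outside the plasma cells, 3.16% had as many. The part of free RNA in these counts was not tested.

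**Figure D3:**
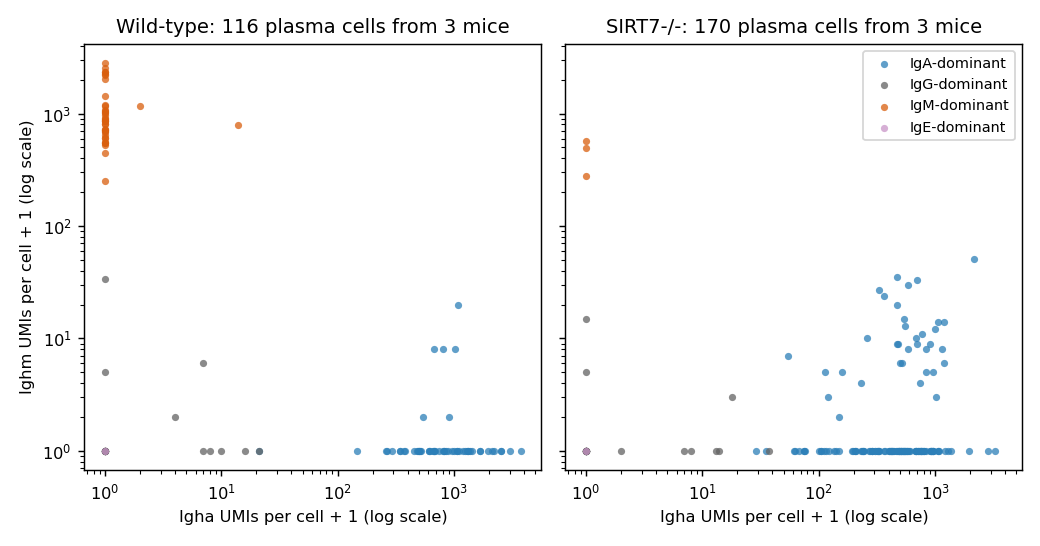
Ighm against Igha UMIs of each plasma cell, each plus 1 on log axes, in 116 WT (left) and 170 SIRT7-/- cells (right), coloured by dominant isotype. The IgM-dominant cells number 38 in the left panel and 3 in the right one, and a cloud of IgA-dominant cells with up to 50 Ighm UMIs stands in the right panel.

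Light chains were mostly kappa. Lambda genes led in 1, 0 and 2 plasma cells of the WT and 1, 2 and 0 of the SIRT7-/- mice, and the shares, 3.79 ± 4.73 and 1.23 ± 1.15%, did not differ beyond the spread between mice (exact permutation test, p = 0.7). Igkc, the kappa constant gene (chr6:70726435-70726966, GRCm38), was at 2966 to 4394 CP10K in the plasma cells of the 6 mice, and at 0.341 to 11.99 in the cells with at least 50 CP10K of Alb, a cell type that should lack it.

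Variable (V) genes were read only in part, since a 3′ kit covers the far end of the mRNA and the gene table held 51 Igkv, 3 Iglv and 37 Ighv genes. Related V genes can share reads, so a single name is uncertain. With a minimum of 3 UMIs, a light-chain V gene was found in 199 plasma cells and 36 different genes led, while a heavy-chain V gene was found in 32 cells. Iglv1 led in 61 cells, 60 of them with more kappa than lambda constant UMIs, Igkv7-33 in 20, Igkv1-117 in 15, Igkv14-111 in 12 and Iglv3 in 10.

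Igkv7-33 (chr6:70058632-70059199, minus strand, GRCm38) was found in 1 mouse. It had UMIs in 30 of the 88 plasma cells of SIRT7-/- mouse 2, up to 51 per cell, and in none of the 198 plasma cells of the other 5 mice. Igkv14-111 (chr6:68256389-68256869, plus strand) had UMIs in 42 of the 88 cells and in 6 of the 198, and the heavy-chain gene Ighv2-2 (chr12:113588267-113588702, minus strand) in 32 of the 88 and 1 of the 198. Among the other cells of SIRT7-/- mouse 2, 1.004, 1.20 and 0.813% had a UMI of these genes.

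These 3 genes occurred in the same cells. In SIRT7-/- mouse 2, 28 plasma cells had both Igkv7-33 and Igkv14-111, all of them IgA-dominant, and 22 of the 28 had Ighv2-2. A further 14 cells had Igkv14-111 without Igkv7-33, 8 of them with Ighv2-2, and 2 had Igkv7-33 alone, both with Ighv2-2. In the 44 cells with neither light-chain gene, Ighv2-2 had no UMI, although their median depth of 3739 UMIs was close to the 4002.5 of the 28. Ighm went with the same genes: at least 3 Ighm UMIs were counted in 17 of the 28 cells, in 7 of the 14 and in 2 of the 44. So 44 of the 88 plasma cells of this mouse, all IgA-dominant, carried Igkv7-33 or Igkv14-111. At 3 UMIs, the pair of Ighv2-2 and Igkv14-111 led in 4 of its cells, and in the 3 other mice with any pair of heavy and light V genes each pair was found in 1 cell. These genes were singled out after their values were seen, no junction sequence was analysed here, and whether the cells share a rearrangement was not tested. The mouse contributed 77 of the 141 IgA-dominant cells of the SIRT7-/- group. Without it the difference in the IgA share between the genotypes was 27.2 percentage points (exact permutation test, p = 0.2).

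IgA-dominant and IgG-dominant cells of the same mouse differed in more than their constant gene. The comparison used the 3 mice with at least 5 cells of each class, WT mouse 3 (45 and 16 cells), SIRT7-/- mouse 1 (56 and 11) and SIRT7-/- mouse 2 (77 and 10), with mouse as a block. Genes higher in IgA cells were 0.265% of the 7545 tested (20 genes) and genes lower were 0.0398% (3 genes), by limma with a Benjamini-Hochberg adjusted p below 0.05, and 709 had an unadjusted p below 0.05. The median log2 difference of all tested genes was 0.41, and 0.08 with a pseudocount of 0.5 in place of 0.05 CP10K, so single differences are to be read against this shift.

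Crip1, which encodes a small LIM-domain protein, was at 70.5, 46.4 and 42.7 CP10K in the IgA cells of WT mouse 3, SIRT7-/- mouse 1 and SIRT7-/- mouse 2 and at 12.1, 25.9 and 19.2 in their IgG cells (log2 difference 1.51 ± 0.21 SE, limma with Benjamini-Hochberg, adjusted p = 4.92e-10). All 3 IgA values were above all 3 IgG values. The log2 differences of the 3 mice were 2.53, 0.842 and 1.15, and the SE rests on a variance pooled over genes. Pycard, which encodes the inflammasome adaptor ASC, was at 8.94, 15.5 and 11.4 CP10K against 2.80, 3.27 and 3.64 (1.84 ± 0.30, limma with Benjamini-Hochberg, adjusted p = 1.70e-06). Its classes did not overlap either.

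Klf2, a transcription factor that governs lymphocyte trafficking, was at 2.78, 3.07 and 1.95 CP10K in IgA and 0.477, 0.576 and 0 in IgG cells (3.36 ± 0.55, limma with Benjamini-Hochberg, adjusted p = 1.34e-06). Tnfrsf17, the BCMA gene, was at 2.73, 3.34 and 3.97 against 0.402, 1.54 and 0.756 CP10K (2.01 ± 0.43, limma with Benjamini-Hochberg, adjusted p = 0.00122). S100a6, a calcium-binding protein gene, was at 1.80, 2.22 and 1.33 CP10K in IgA cells and had no UMI in the IgG cells of these mice. Glipr1 (log2 difference 2.83), Anxa2 (3.36), whose product binds membranes in the presence of calcium, and Tmsb4x (1.11), which encodes the actin-sequestering thymosin β4, were also higher. With a pseudocount of 0.5 the log2 differences of Klf2 and Anxa2 were 1.93 and 1.67.

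Fewer genes stood on the IgG side. Ly6c2, a surface protein of the Ly6 family, was at 2.05, 3.52 and 1.89 CP10K in IgA and 5.32, 8.62 and 6.88 in IgG cells (log2 difference -1.49 ± 0.34, limma with Benjamini-Hochberg, adjusted p = 0.00416). Ly6a, which encodes the related Sca-1, was at 5.72, 7.05 and 6.38 against 7.49, 14.2 and 26.3 CP10K (-1.14 ± 0.27, limma with Benjamini-Hochberg, adjusted p = 0.0102). In both genes each IgG value was above each IgA value. Iglv1 was lower by 1.30 in the IgA cells on the log2 scale.

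Of the 23 called genes, 22 differed in the same direction in each of the 3 mice, the exception being Iglc1. The genes were called on these same mice, so this agreement is largely set by the selection. WT mouse 2 (4 IgA and 4 IgG cells) and SIRT7-/- mouse 3 (8 and 4) had too few cells for the fit and so gave values independent of it. In them 17 and 18 of the 23 genes pointed the same way, 16 in both. The share of all genes pointing either way in these 2 mice was not computed. In the fit 5197 of the 7545 genes were higher in IgA cells, as were 20 of the 23, so these counts alone do not show replication. Crip1 was at 38.9 against 3.49 CP10K in WT mouse 2 and 22.3 against 6.80 in SIRT7-/- mouse 3, and Klf2 at 4.11 against 0 and 3.01 against 0. Pycard was at 15.0 against 1.13 and 7.24 against 2.39, Tnfrsf17 at 4.11 against 0.314 and 1.97 against 0, and Ly6c2 at 3.13 against 8.66 and 0.0715 against 9.07. S100a8, S100a9, Lyz2 and Igkv1-117 did not point the same way in either mouse, and S100a6, Fabp1 and Iglc1 did so in only 1. S100a6 was at 0.303 against 0 CP10K in WT mouse 2 and at 0.156 against 0.255 in SIRT7-/- mouse 3.

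**Figure D4:**
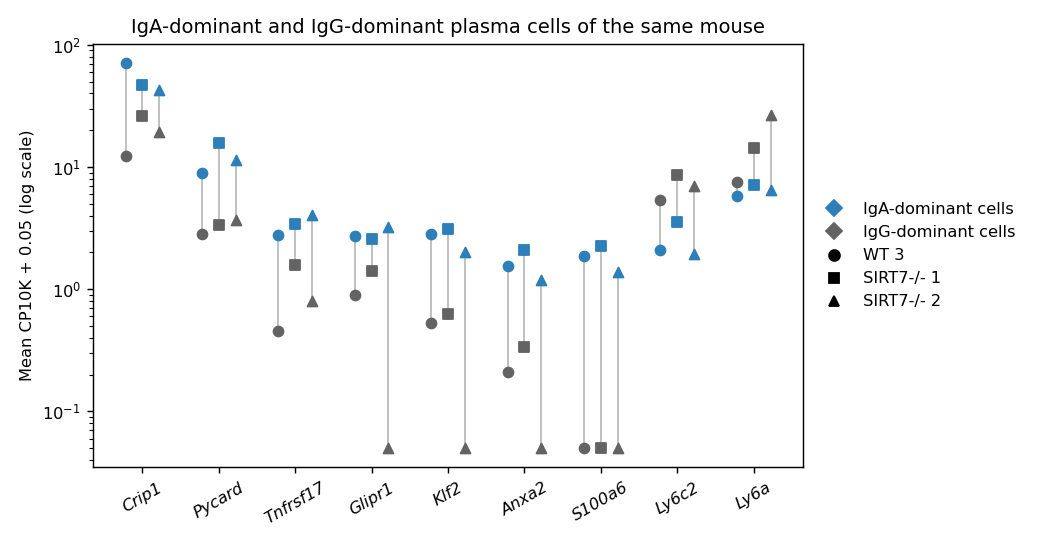
Mean level in CP10K plus 0.05, on a log axis, of 9 called genes in the IgA-dominant (blue) and IgG-dominant (grey) plasma cells of WT mouse 3, SIRT7-/- mouse 1 and SIRT7-/- mouse 2; a line joins the 2 classes of a mouse. Every line runs the same way within a gene, as for Crip1 from 12.1 to 70.5, 25.9 to 46.4 and 19.2 to 42.7 CP10K. The genes were called on these same mice, so the shared direction is largely set by that choice.

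Some of the called genes are markers of other cell types. S100a8 and S100a9, neutrophil genes, had log2 differences of 4.87 and 4.72. Of the plasma cells, 6 had 10 or more of their UMIs, all IgA-dominant, 4 in SIRT7-/- mouse 1 and 2 in SIRT7-/- mouse 2, while in WT mouse 3, with no such cell, the differences were 2.44 and 1.90. Lyz2, a myeloid lysozyme gene, and the hepatocyte genes Fabp1 and Ass1 were called too. In an alternative added after the data were seen, cells with at least 2 UMIs of a marker of another cell type were left out. Hepatocyte markers were not part of this filter, so Fabp1 and Ass1 were not tested by it. With this filter 16 genes were called and 10 of them were among the 23: Klf2, Pycard, Tnfrsf17, Glipr1, Tmsb4x, Ly6c2, Ly6a, Iglv1, Fabp1 and Ass1. The log2 difference of S100a9 became -0.048 and that of S100a8 2.05, neither of them called, and Crip1 was at 1.67 without passing (limma with Benjamini-Hochberg, adjusted p = 0.670). Without WT mouse 3 the count fell to 11, and Crip1, Tnfrsf17 and Ly6c2 no longer passed. Without the mouse block it fell to 3.

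The lists bear on the same comparison. Of 69 ER genes tested, none was called, with a median log2 difference of -0.04 beside 0.41 for all genes. Of 25 plasma cell genes 1 was called, Tnfrsf17, and of 27 genes of homing and survival 1, Klf2, both higher in IgA, beside 0.265% of all genes tested. Of 24 cell cycle genes and 18 ISR genes none was called.

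IgA and IgM cells were set side by side in the WT mice. WT mouse 3 alone had 5 or more cells of both classes (45 and 26), so no test was made, and WT mouse 1 (7 and 3) and WT mouse 2 (4 and 9) add values. SIRT7-/- mouse 1 had 56 IgA and 3 IgM cells, and its values are given last. Of 1687 genes compared, 44 were more than 1 log2 unit higher and 20 more than 1 lower in IgA cells in all 3 mice, which were picked on these values. Crip1 was at 18.0, 38.9 and 70.5 CP10K in the IgA and 1.91, 1.71 and 5.21 in the IgM cells. Ccr10, the receptor for mucosal chemokines typical of IgA-secreting cells, was at 1.61, 0.455 and 0.828 against 0.275, 0 and 0, and Itgb7, the β chain of the gut-homing integrin, at 1.22, 2.34 and 1.21 against 0, 0.0926 and 0.311. Itga4, the gene of the integrin's other chain, was lower in the IgA cells of WT mouse 1, at 0.457, 1.54 and 2.27 against 1.41, 0.390 and 0.763. Tnfrsf17 was at 1.54, 4.11 and 2.73 against 0, 0.997 and 0.684 CP10K. Cxcr4, the receptor that holds plasma cells in the bone marrow, was lower in IgA cells at 0.266, 0 and 0.164 against 1.84, 0.912 and 0.991, and Ly6a at 2.55, 5.36 and 5.72 against 7.98, 12.4 and 11.5. In SIRT7-/- mouse 1 the IgA and IgM cells had 46.4 and 1.20 CP10K of Crip1, 0.955 and 0 of Ccr10, 3.34 and 0 of Tnfrsf17 and 7.05 and 10.2 of Ly6a, as in the WT mice, while Cxcr4 was at 0.310 and 0. The IgA cells of WT mouse 3 and SIRT7-/- mouse 1 are in both comparisons of isotypes.

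Between the genotypes, few genes of the plasma cells were called. Of 7212 genes tested on mouse means, 6 were higher (0.0832%) and 12 lower (0.166%) in SIRT7-/-, by limma with a Benjamini-Hochberg adjusted p below 0.05, and 350 had an unadjusted p below 0.05. Actb, which encodes β-actin, was at 12.7, 10.6 and 14.1 CP10K in the WT and 34.4, 39.7 and 18.1 in the SIRT7-/- plasma cells (log2 difference 1.23 ± 0.26 SE, limma with Benjamini-Hochberg, adjusted p = 0.00204). All SIRT7-/- values were above all WT values, and 280 of the 286 cells had an Actb UMI. In the cells that were neither plasma cells nor Alb-rich, Actb was at 106, 91.2 and 93.5 against 117, 163 and 104 CP10K. The part of RNA from such cells in the Actb difference was not tested. Ly6d, a surface marker of early B lineage cells, was at 14.5, 7.47 and 4.69 against 6.22, 3.71 and 1.48 (-1.28 ± 0.32, limma with Benjamini-Hochberg, adjusted p = 0.0355), with overlap between the groups. Ly6k, of the same family, was at 0.262, 1.23 and 1.61 against 0.469, 0.115 and 0.0928 (-1.92 ± 0.50, limma with Benjamini-Hochberg, adjusted p = 0.04999), also with overlap, and was lost under 18 of 21 alternatives. In the WT mice Ly6k was lower in IgA than in IgM cells, at 0, 0.513 and 1.02 against 0.275, 2.10 and 2.90 CP10K. In SIRT7-/- mouse 1 it went the other way, at 0.220 in 56 IgA and 0 in 3 IgM cells. The part of the isotype mix in the Ly6k difference between genotypes was not tested.

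Most of the other calls were hepatocyte genes at low levels. Sult2a1, a sulfotransferase, was at 1.49, 3.02 and 1.49 CP10K in the WT and 0.487, 0.279 and 0 in the SIRT7-/- plasma cells (-3.23 ± 0.46, limma with Benjamini-Hochberg, adjusted p = 5.07e-08). Its mean in the 2150 cells with at least 50 CP10K of Alb was 13.4 times that in plasma cells, and those cells were themselves lower in SIRT7-/-, by 1.53 on the log2 scale. Of the 18 called genes, 11 were at least 5 times higher in the Alb-rich cells than in plasma cells, among them Car3 (14.1 times), Sult3a1 (18.6 times), Hamp2, Mup9 and Serpina1a, all lower in SIRT7-/-, and Apoa4 and Cyp3a11, both higher. The summed level of 10 hepatocyte markers in the plasma cells was 81.3, 62.3 and 49.9 CP10K in the WT and 73.7, 13.8 and 58.3 in the SIRT7-/- mice, against 128 to 724 in the remaining cells of the mice. The part of hepatocyte RNA in these calls was not tested. Igkv16-104 and Igkv12-46 were called higher from UMIs in 5 and 10 cells, and BC018473, an antisense gene, had 0, 0 and 0 against 0.351, 0.228 and 0.347 CP10K, from 19 UMIs in all. The difference in BC018473 was not particular to plasma cells. In the cells that were neither plasma cells nor Alb-rich it was at 0, 0 and 0 against 1.52, 1.47 and 1.42 CP10K.

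**Figure D5:**
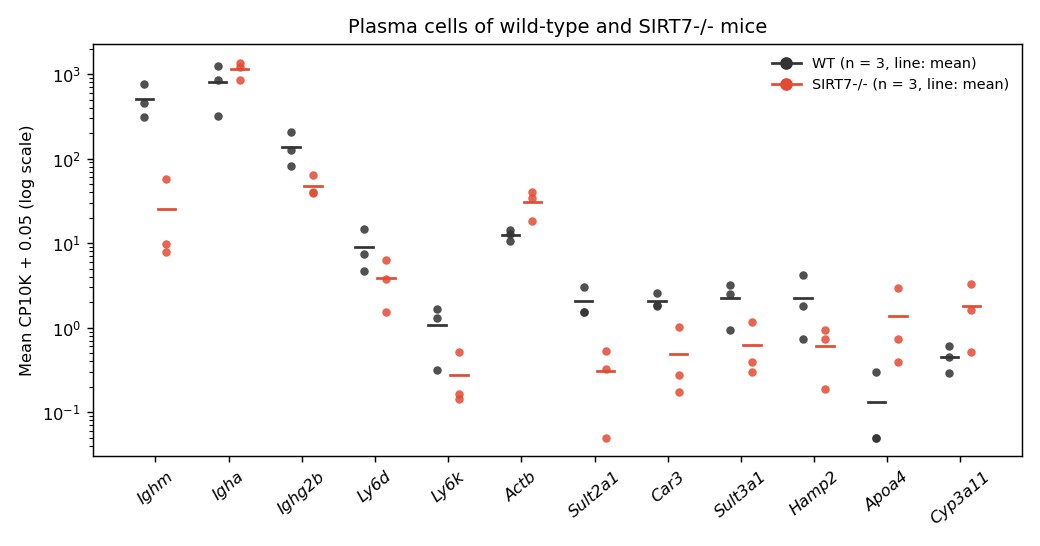
Mean level in CP10K plus 0.05, on a log axis, of 12 genes in the plasma cells of each WT (dark) and SIRT7-/- mouse (red); lines are means of the 3 mice. Ighm falls from 311 to 758 in the WT to 7.85 to 58.1 in the SIRT7-/- mice without overlap, although its adjusted p of 0.584 did not pass.

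These calls depended on single mice and on the model. Leaving out 1 mouse gave 0 calls without WT mouse 1, 4 without WT mouse 2 and 17 without WT mouse 3, and 32, 11 and 62 without SIRT7-/- mice 1, 2 and 3, and 0 genes passed when the prior variance was fitted with neither a trend nor robustness (327 at an unadjusted p below 0.05). Actb was lost without WT mouse 1, WT mouse 2 or SIRT7-/- mouse 2, and when cells with markers of other cell types were left out (log2 difference 1.004, limma with Benjamini-Hochberg, adjusted p = 0.141).

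The secretory and stress programmes were not called different between the genotypes. None of 69 ER genes passed, with 40 above and 29 below 0 and a median log2 difference of 0.08 beside 0.11 for all genes. Hspa5 was at 16.2, 20.9 and 9.84 CP10K in the WT and 7.57, 11.8 and 12.6 in the SIRT7-/- plasma cells, which overlapped. P4hb, protein disulfide isomerase, had the lowest unadjusted p of the list, at 0.761, 1.11 and 1.41 against 2.32, 2.64 and 1.88 CP10K (1.05 ± 0.37, limma with Benjamini-Hochberg, adjusted p = 0.412), and its groups did not overlap. Of 30 ISR genes measured, 18 were tested and none passed, with a median of -0.12 and values for Ddit3 (CHOP) of 0.934, 0.236 and 0.183 against 0.425, 0.2003 and 0.0477 CP10K. None of 27 homing and survival genes, 22 cell cycle genes or 82 ribosomal protein genes passed. The ribosomal protein genes were mostly above 0, at 77 above and 5 below, with a median of 0.27 beside 0.11 for all genes. Of all 7212 genes 4122 were above 0, and 0 of the 82 had an unadjusted p below 0.05. The homing genes had 20 above and 7 below 0 (median 0.20) and the cell cycle genes 17 and 5 (median 0.62). At this number of mice, 0% of the genes changed by 1 on the log2 scale were recovered when the test was tried on simulated data, so these counts do not show that the genes were alike.

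Measures per cell did not differ beyond the spread between mice. Immunoglobulin genes took 55.5 ± 3.27% of the UMIs in WT and 49.6 ± 7.48% in SIRT7-/- plasma cells (exact permutation test, p = 0.3). Cells carried a mean of 10051 ± 4384 against 6171 ± 4472 UMIs (exact permutation test, p = 0.2). A UMI of the proliferation genes Mki67 or Top2a was found in 1 of 11, 4 of 17 and 8 of 88 WT and 9 of 70, 15 of 88 and 2 of 12 SIRT7-/- plasma cells (13.9 ± 8.34 against 15.5 ± 2.32%, exact permutation test, p = 0.8). After Benjamini-Hochberg adjustment over 5 such measures the p-values were 0.5 to 0.8.

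Markers of other cell types in the plasma cells moved with single libraries. The summed level of 8 neutrophil markers was 0, 0.0461 and 0.242 CP10K in the WT and 83.9, 20.9 and 0.0465 in the SIRT7-/- mice. S100a8 or S100a9 UMIs were found in 30 of the 70 plasma cells of SIRT7-/- mouse 1 (42.9%), and their mean of 64.2 CP10K there was 1.93 without the 4 cells that had 10 or more. Macrophage, T and natural killer, and endothelial markers summed to at most 3.52, 2.54 and 2.26 CP10K in any mouse, and 5 basophil markers were at 0. Red cell markers summed to 7.75 CP10K in SIRT7-/- mouse 2, from 1 cell with 239 of their UMIs, and to at most 0.169 in the other mice. The isotype shares above were also computed without the plasma cells that carried such markers and kept their direction.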

How the data were processed

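Processed values of 6 liver libraries (3 WT and 3 SIRT7-/- mice, 1 per mouse) were analysed. By the submitters' processing notes, reads were aligned to mm10 with Cell Ranger 6.0.0, and by the study's methods the authors kept cells with at least 500 genes in Scanpy. The deposited table holds 16623 genes in 11610 cells as the natural log of counts per 10000 plus 1, computed by the authors. Each value was turned back into UMIs, and all 12961041 values above 0 came out whole within 0.02 (largest deviation 0.00387).

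The members and gene lists were chosen with earlier results of these data known. Mice are the replicates, and permutation p-values measure only the spread between these mice. The limma SEs and p-values also draw on a variance pooled over genes, so they can be smaller than the spread of 1 gene between mice would give. Levels are mean CP10K per mouse with a pseudocount of 0.05. A fold on this scale understates the change of low genes. Genes with a mean of at least 0.05 were tested with limma 3.58.1 (R 4.3.3, trend and robust) in mice with at least 10 plasma cells, with Benjamini-Hochberg adjustment over all genes tested. Single measures were compared with exact permutation tests over all splits of the mice, computed directly in Python 3.11.15. Intervals are exact (Clopper-Pearson, scipy 1.17.1) and cover counting error only, as do the limits for shares of 0 (3 counts). Isotype classes needed 5 cells per mouse, and heavy-chain constant genes and genes of the rule were not counted as calls in the comparison of isotypes.

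Named genes were the rule's genes, list members that were called or had the highest levels, the 10 largest differences each way among calls of at least 0.5 CP10K, and the most frequent V genes. BC018473, P4hb, Ddit3, Prdm1 and other list members shown for their role, and the V genes of SIRT7-/- mouse 2, were named after their values were seen. Scrublet in Scanpy 1.11.5 marked 46 cells (0.396%), too few for it to have worked, so no cell was removed as a doublet. Alternatives without cells with markers of other cell types dropped cells with at least 2 UMIs of such a marker, hepatocyte markers not counted. 13 barcodes occurred in 2 libraries, none of them in a plasma cell.

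The limma step was tested on simulated data for SIRT7-/- against WT with 7217 genes, of which 200 were changed. It recovered 0% of them at a log2 change of 1, 67% at 2 and 92.5% at 3, with 8 and 3 calls among the unchanged genes at 2 and 3, and made 0 calls when nothing was changed. Promoters were matched by symbol to a RefSeq table, and 59 of 72 ER genes (Derl3 included) and 24 of 32 plasma cell genes had one.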

Additional observations from a re-analysis of the deposited data

How the results depend on the processing

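Of the isotype results, the IgA and IgM shares kept their direction under all 15 alternatives, with differences of 20.7 to 40.7 and -39.8 to -27.0 percentage points and exact permutation p-values of 0.1 to 0.25 (0.25 is from 3 pairs of mice with a replicate block). The share of plasma cells among all cells ran from -2.45 to 1.13 points when 1 mouse was left out, turning only without WT mouse 3. The IgG difference was -0.719 without WT mouse 1, -3.40 without SIRT7-/- mouse 3 and -0.485 with an immunoglobulin share of 20% as the rule, and at most 7.59. The lambda difference ran from -4.45 to 0.0974 when 1 mouse was left out, turning without WT mouse 1. The Mki67 or Top2a difference was -0.532 with cells thinned to 1000 UMIs and -0.787 without WT mouse 1 or WT mouse 3, and at most 6.43.

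The 18 calls of SIRT7-/- against WT became 11 with a pseudocount of 0.5, 10 with no filter, 0 with a filter at 0.2 CP10K (142 at an unadjusted p below 0.05), 29 with mean deposited ln values, 33 after rescaling without immunoglobulin genes, 0 without trend and robustness, 2 with voom weights, 1 with mice of at least 20 plasma cells, 11 without cells with other markers and, when 1 mouse was left out, 0 to 62. Alternatives added after the data were seen gave 1 with Jchain and Mzb1 alone and 1 in IgA-dominant cells alone, where the log2 difference was 5.21 for Ighm and -0.19 for Igha. With mice of at least 20 plasma cells Igkv16-104 was at -0.23 and Ly6d at 0.035, and with all 4 marker genes required Igkv12-46 was at -1.60. The replicate numbers do not pair the mice (correlations of same-numbered mice 0.0232, -0.0449 and -0.0608), and the replicate block gave 8 calls, 5 higher and 3 lower.

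The 23 calls of IgA against IgG became 3 without the mouse block and 11 to 22 when 1 mouse was left out (11 without WT mouse 3), and S100a9 was at -0.048 without cells with other markers. The other 5 alternatives gave 21 to 28 calls or, without those cells, 16. A fit without trend and robustness was not run for IgA against IgG. Beyond the construction of the alternatives, the cause of these changes was not tested. The comparison of IgA with IgM had no fit, so its alternatives were not run. The number of cells differed, since 3 of the mice had 11 to 17 plasma cells and these were the most deeply sequenced per cell, and the limit that depth sets was not tested.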
